A study of Mus musculus with 6 samples.

Results

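The genes described here are the receptors through which retinoic acid acts on transcription, together with 1 of their cofactors: the 3 retinoic acid receptor genes Rara, Rarb and Rarg, the 3 rexinoid (retinoid X) receptor genes Rxra, Rxrb and Rxrg, and Nrip1. They were taken by symbol from a table of 21534 genes, which holds all 7. Polyadenylated RNA had been sequenced from organoids of the ileum of wild-type C57Bl/6 mice, which are closed cultures of gut epithelium. Both groups had first been kept for 96 hours with 10 µM CHIR99021, which blocks the kinase GSK3, raises Wnt signalling and favours stem cells. For the next 24 hours, 1 group of 3 libraries received 10 µM retinoic acid, into which cells turn vitamin A, and the other group of 3 libraries received vehicle (DMSO). Whether replicates stem from different mice or different dishes is not in the labels. The p-values therefore measure only the spread between these libraries, which may be technical.

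Retinoic acid receptors are transcription factors that sit on DNA as pairs with a rexinoid receptor. The pair binds direct repeats of a short half-site, and a repeat with 5 bases between the half-sites (DR5) is the classic retinoic acid response element. Without ligand the pair holds corepressors, and retinoic acid exchanges these for coactivators. Rexinoid receptors also pair with the receptors for vitamin D, bile acids, fatty acids, thyroid hormone and xenobiotics. Nrip1 (also called RIP140) differs from most cofactors of its kind in that it binds receptors that carry their ligand and recruits repressing enzymes to them. In gut epithelium retinoic acid made from dietary vitamin A bears on cell differentiation and on mucosal immunity.

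The sequences upstream of the starts annotated by RefSeq (build GRCm38.p6, the assembly of mm10) were searched for the half-site AGGTCA or a variant of it (either AGTTCA or else GGGTCA or else GGTTCA) on both strands, and for pairs of half-sites in the same direction with 1, 2 or 5 bases between. The 7 genes have 15 annotated start windows of 300 bases, from 250 bases before to 50 after a start (the first and second window of Rara share 278 bases). A DR5 was found in the window of Rarb and in no other of the 15, and 0.0974% of all 32851 windows of the genome hold one. No window of the 7 genes held a repeat with 1 or 2 bases between, which 0.222% and 0.268% of all windows hold. Single half-sites occurred in 8 of the 15 windows, against 43.7% of all windows. The 250 bases upstream of a start are shown for Rarb, whose element lies there, and for Rarg and Nrip1, the genes with the firmest differences, where the letters of a DR5 were not present. Half-sites are in capitals. Rarg and Nrip1 each have 2 annotated starts, and the stretch shown is that of the first. The window of the second start, not shown, held no half-site in either gene. The Rarb stretch is chr14:16575477-16575726, the Rarg stretch chr15:102257523-102257772 and the Nrip1 stretch chr16:76373828-76374077, all on the minus strand.
Rarb: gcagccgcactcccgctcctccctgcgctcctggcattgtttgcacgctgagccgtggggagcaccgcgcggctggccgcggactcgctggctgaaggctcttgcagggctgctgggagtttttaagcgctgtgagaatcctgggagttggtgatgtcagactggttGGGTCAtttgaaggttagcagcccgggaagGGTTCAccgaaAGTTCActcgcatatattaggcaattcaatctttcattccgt
Rarg: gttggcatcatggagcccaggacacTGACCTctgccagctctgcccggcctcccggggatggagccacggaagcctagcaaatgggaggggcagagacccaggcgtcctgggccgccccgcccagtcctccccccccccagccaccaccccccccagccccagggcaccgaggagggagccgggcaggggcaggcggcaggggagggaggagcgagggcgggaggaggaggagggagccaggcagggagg
Nrip1: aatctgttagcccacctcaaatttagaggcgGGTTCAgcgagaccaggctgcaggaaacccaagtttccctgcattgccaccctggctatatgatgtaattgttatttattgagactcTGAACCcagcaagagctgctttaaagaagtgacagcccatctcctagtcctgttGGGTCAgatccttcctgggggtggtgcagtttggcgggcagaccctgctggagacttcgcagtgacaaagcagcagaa
The Rarb element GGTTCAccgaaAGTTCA (chr14:16575513-16575529) runs from 53 to 37 bases before the start. The single capital run of Rarg is AGGTCA read on the other strand, and the second of the 3 runs of Nrip1 is GGTTCA read on the other strand. A match of letters is a description of the sequence and no evidence of binding in these cultures.

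Organoids given retinoic acid held modestly more Rarg, Nrip1 and Rara transcript. Rarg differed by 1.44-fold, Nrip1 by 1.24-fold and Rara by 1.19-fold, and these were the members that passed the test. Rarb, which had very few reads, and Rxra, which lay lower with retinoic acid, did not pass it. Rxrb lay at 1.03 times its vehicle level, and Rxrg was hardly detected. Differences were tested with edgeR's quasi-likelihood test over all 13700 genes with enough reads, and a gene was called at a Benjamini-Hochberg adjusted p under 0.05. Of the 7 genes 6 were tested. Rarb passed the filter on low counts through its retinoic acid libraries, as all 3 of them and 1 of the 3 vehicle libraries exceeded 0.597 counts per 1000000 reads (CPM). Over all tested genes 5.37% were called higher, 4.09% lower and 9.46% in either direction.

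**Figure D1:**
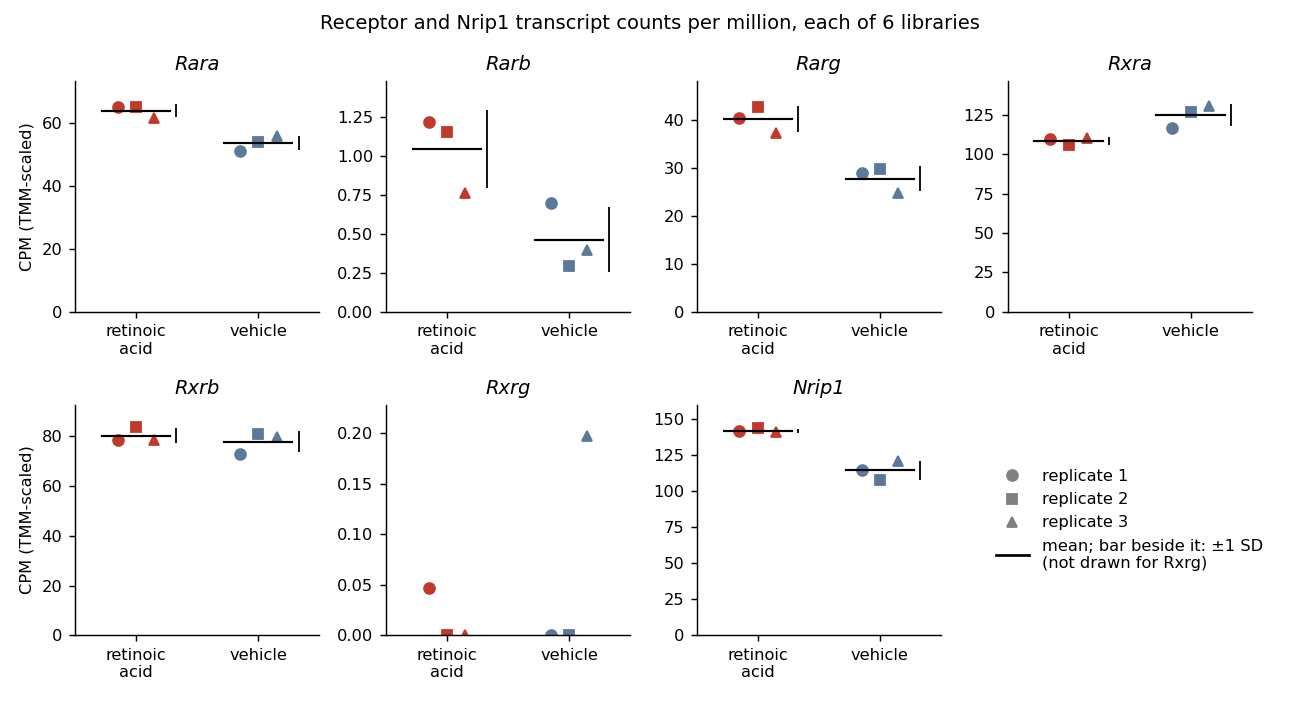
CPM (counts per 1000000 reads, TMM-scaled) of each gene in each library, with retinoic acid on the left and vehicle on the right of each panel, the mean as a line and 1 SD as a bar. The points of the groups do not overlap for Rara, Rarb, Rarg, Rxra and Nrip1, and they overlap for Rxrb.

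Rarg encodes the retinoic acid receptor gamma (ENSMUSG00000001288, mm10 chromosome 15, 102234938 to 102257517, minus strand). It had 40.5, 42.8 and 37.4 CPM in retinoic acid libraries 1, 2 and 3, against 29.0, 29.8 and 24.8 CPM in vehicle libraries 1, 2 and 3. Every retinoic acid library lay above every vehicle library, and library 3 was the lowest of its group in both. The raw counts behind these values were 865, 632 and 740 with retinoic acid and 502, 503 and 377 with vehicle. The log2 fold change was 0.53 (standard error 0.09), with a 95% interval of 1.25-fold to 1.66-fold and an adjusted p of 0.00234 in edgeR's quasi-likelihood test. Rarg was called whichever library was left out, with log2 fold changes between 0.45 and 0.58. The authors' deposited table lists an FDR of 0.000112 for it.

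Rara, the gene of the retinoic acid receptor alpha (ENSMUSG00000037992, chromosome 11, 98927818 to 98974942, plus strand), had 65.2, 65.2 and 61.7 CPM in retinoic acid libraries 1, 2 and 3 and 51.3, 54.0 and 55.9 CPM in vehicle libraries 1, 2 and 3. The groups did not overlap, and the gap between them was narrower than for Rarg. The log2 fold change was 0.25 (standard error 0.07) and the edgeR adjusted p was 0.0349. The call did not hold without retinoic acid library 1 or 2 or without vehicle library 1 or 2 (adjusted p up to 0.147), while the log2 fold change stayed between 0.22 and 0.28. The authors' deposited table lists an FDR of 0.0447.

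Rarb encodes the retinoic acid receptor beta, long known as a target gene of the receptors through the DR5 shown above (ENSMUSG00000017491, chromosome 14, 16430842 to 16575472, minus strand). It had 26, 17 and 15 counts in retinoic acid libraries 1, 2 and 3, which is 1.22, 1.15 and 0.757 CPM. The vehicle libraries 1, 2 and 3 had 12, 5 and 6 counts, which is 0.693, 0.296 and 0.395 CPM. The lowest retinoic acid library lay just above the highest vehicle library. The log2 fold change of 1.15 had a standard error of 0.45 and a 95% interval of 1.14-fold to 4.32-fold. Its unadjusted p was 0.0225 and its edgeR adjusted p 0.142, so Rarb was not called, and it was not called without any 1 of the libraries either (adjusted p 0.0937 to 0.411). At 5 to 26 reads a library, a difference of this size was not distinguishable from the spread once all genes were tested. Of the 4359 exon bases of Rarb within its span in the table, 1790 (41.1%) also lie in exons of Top2b, a DNA topoisomerase gene on the other strand, named here after its values were seen. Top2b had 2302, 1661 and 1751 counts in retinoic acid libraries 1, 2 and 3 and 1699, 1563 and 1283 counts in vehicle libraries 1, 2 and 3 (edgeR adjusted p = 0.309). The libraries were directional, but whether counting used strand is not given in the sources used here, so the origin of the few Rarb reads in the shared bases is uncertain.

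The rexinoid receptor genes showed no call in the fit with treatment as the only term. With the replicate number added as a block, Rxra was called lower (log2 fold change −0.20, edgeR adjusted p 0.0163). The labels do not say whether the numbers mark pairs. Rxra (ENSMUSG00000015846, chromosome 2, 27676440 to 27762957, plus strand) had 109, 106 and 110.4 CPM in retinoic acid libraries 1, 2 and 3 and 117, 127 and 130.4 CPM in vehicle libraries 1, 2 and 3. All retinoic acid libraries lay below all vehicle libraries, a log2 fold change of −0.20 (standard error 0.06). Without the block the edgeR adjusted p was 0.0669. It was 0.0479 without vehicle library 1 and between 0.0585 and 0.212 without any of the other 5. The 95% interval ran from 0.792-fold to 0.957-fold. Rxrb (ENSMUSG00000039656, chromosome 17, 34031812 to 34038393, plus strand) had 78.3, 83.5 and 78.5 CPM with retinoic acid and 72.7, 80.7 and 79.5 CPM with vehicle. Its groups overlapped, and its 95% interval of 0.933-fold to 1.14-fold leaves room for a difference of this size in either direction (adjusted p = 0.773). Rxrg (ENSMUSG00000015843, chromosome 1, 167598384 to 167639623, plus strand) had 1 count over the 3 retinoic acid libraries and 3 counts over the 3 vehicle libraries, all 3 in vehicle library 3. No fold is given for it, and a count of 0 allows a level of up to 0.203 CPM in the shallowest of the libraries at 0 (3 counts; counting error only).

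Nrip1, the cofactor gene (ENSMUSG00000048490, chromosome 16, 76287400 to 76373827, minus strand), had 141, 143 and 141 CPM in retinoic acid libraries 1, 2 and 3 and 114, 108 and 121 CPM in vehicle libraries 1, 2 and 3. The retinoic acid libraries lay close together, with a coefficient of variation of 0.959% against 5.84% in the vehicle libraries, and all of them lay above all vehicle libraries. The log2 fold change was 0.31 (standard error 0.06; 95% interval 1.13-fold to 1.36-fold) with an edgeR adjusted p of 0.00532. Nrip1 was called whichever library was left out (log2 fold changes of 0.27 to 0.36, adjusted p up to 0.0379). The authors' deposited table lists an FDR of 0.000314 for Nrip1, of 0.108 for Rxra, of 0.490 for Rarb and of 0.978 for Rxrb. In that table Rarg, Nrip1 and Rara, 3 of the 7 members, have an FDR under 0.05, as do 5.44% of all genes listed.

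Of the 7 members, edgeR without a replicate block thus called 3 higher and none lower, left 3 uncalled and did not test Rxrg. Over all tested genes 5.37% were called higher and 4.09% lower. DESeq2 called 3 higher and none lower, and at an unadjusted p under 0.05 edgeR had 4 higher and 1 lower. Rarg, Nrip1, Rara and Rarb had every retinoic acid library above every vehicle library, as did 12.9% of all tested genes. Rxra had them all below, as did 12.6% (25.5% in either direction). Rarb passed the filter through its retinoic acid libraries, so its separation is not independent of the filter. The differences of the called members were small beside those of the genes that changed most. Of the genes called higher, 266 had a larger fold than Rarg, 516 than Nrip1 and 638 than Rara. The median absolute log2 fold change was 0.45 over all called genes and 0.12 over all tested genes.

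**Figure D2:**
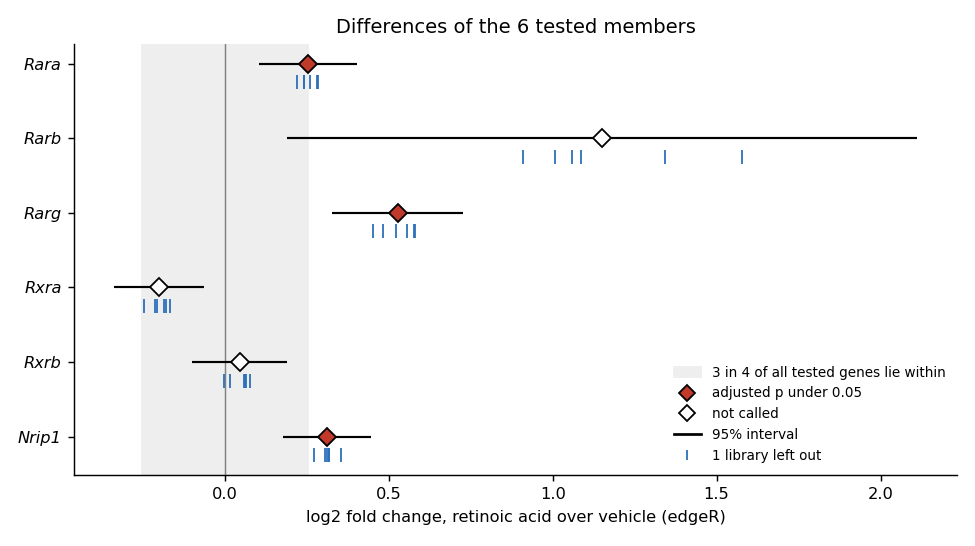
Log2 fold change of each tested member, retinoic acid over vehicle, with its 95% interval (line) and the values with 1 library left out (blue ticks); the grey band holds 3 in 4 of all tested genes. Rarg, Nrip1 and Rara are called, the interval of Rarb is the widest of the 6, and that of Rxrb spans 0.

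Levels were compared between genes as CPM per kilobase of merged exons (GENCODE M21 exons within each gene's span in the table). These lengths merge the exons of all annotated transcripts, and the order of the genes and the sums below depend on them. Nrip1, at 11.5 kilobases against 4.37 for Rara, had more CPM than Rara before this division (142 against 64.1 on average with retinoic acid). The order of the mean levels was the same in both groups except at the top. In retinoic acid libraries Rxrb had 20.2 ± 0.747 and Rxra 19.9 ± 0.466 CPM per kilobase (SD, n = 3), and their ranges overlapped. In vehicle libraries Rxra had 22.8 ± 1.30 and Rxrb 19.6 ± 1.08 CPM per kilobase, without overlap. Below them, Rara had 14.7 ± 0.468 CPM per kilobase with retinoic acid and 12.3 ± 0.524 with vehicle. Nrip1 had 12.4 ± 0.119 and 9.96 ± 0.582, and Rarg had 9.44 ± 0.642 and 6.54 ± 0.628 CPM per kilobase, each with retinoic acid first and vehicle second. From Rxrb down to Rarb the ranges of neighbours in this order were separate in the vehicle libraries, and from Rxra down to Rxrg in the retinoic acid libraries. Rarb stood far below the rest, at 0.239 ± 0.0571 and 0.106 ± 0.0474 CPM per kilobase with retinoic acid and vehicle, and its vehicle range overlapped that of Rxrg. Among the 13525 tested genes with a length, the mean level per kilobase of Rxra exceeded 77.3% of genes, that of Rxrb 75.9%, Rara 66.2%, Nrip1 60.7%, Rarg 52% and Rarb 2.2%. Rara and Rarg thus made up nearly all of the retinoic acid receptor transcripts. The Rarb share of the RAR sum was at most 1.13% in a retinoic acid library and 0.849% in a vehicle library.

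Relative to Rara, the Rarg reads were more numerous in each retinoic acid library than in any vehicle library. There were 0.621, 0.656 and 0.606 Rarg reads per Rara read in retinoic acid libraries 1, 2 and 3, against 0.565, 0.552 and 0.444 in vehicle libraries 1, 2 and 3. Vehicle library 3 lay apart from the other vehicle libraries. The difference of the mean log2 ratio was 0.28, with a p of 0.1 in a two-sided exact permutation test, which is the smallest p that 3 against 3 libraries allow. Without vehicle library 3 the difference was 0.17. The ratio of Rxra to Rxrb reads was 1.40, 1.26 and 1.41 with retinoic acid and 1.61, 1.58 and 1.64 with vehicle. This is a difference of −0.25 in the mean log2 ratio, also without overlap and with an exact permutation p of 0.1. These 2 ratios were the family tested, and the Benjamini-Hochberg adjustment leaves both at 0.1. The members behind these ratios were chosen with results known, so the ratios are not independent evidence.

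Summed per kilobase, the RXR genes exceeded the RAR genes in every library. The RXR sum was 1.61, 1.60 and 1.73 times the RAR sum in retinoic acid libraries 1, 2 and 3, against 2.12, 2.25 and 2.35 times in vehicle libraries 1, 2 and 3. The RAR sum was 23.1 to 25.3 CPM per kilobase in retinoic acid libraries and 18.7 to 19.4 in vehicle libraries, and the RXR sum was 39.8 to 40.4 and 39.7 to 44.0. The ratio of the sums was thus lower in each retinoic acid library than in any vehicle library. Since the members were chosen with results known, no test is given for these sums.

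**Figure D3:**
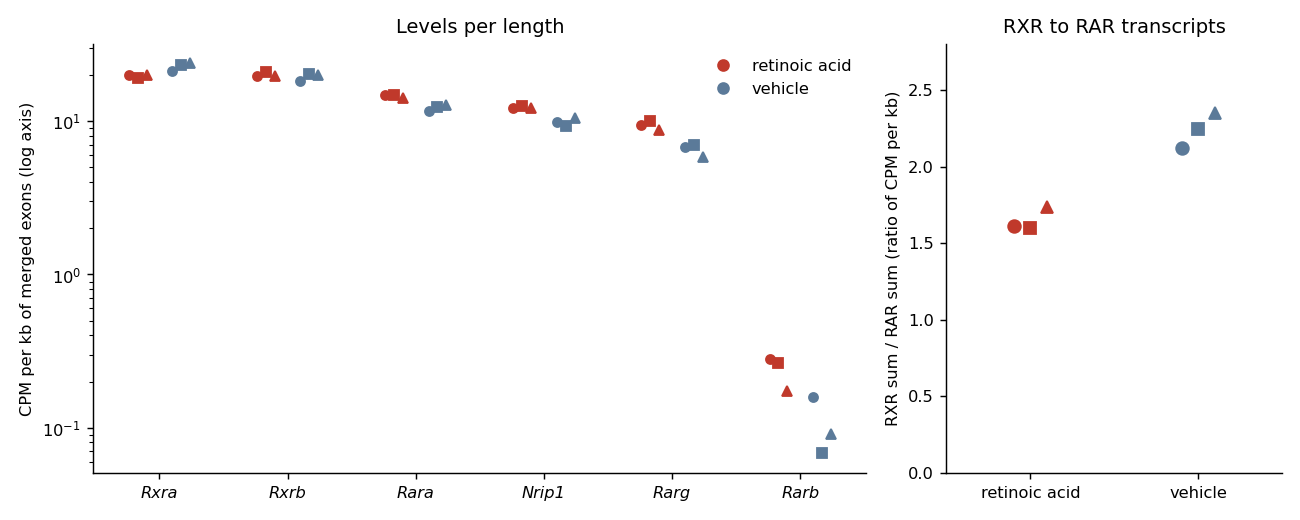
Left, CPM per kilobase of merged exons in each library on a log axis, with retinoic acid (red) left of vehicle (blue) for each gene; Rxrg, at 0 in 4 of 6 libraries, is left out. Right, the ratio of the RXR sum to the RAR sum in each library, 1.60 to 1.73 with retinoic acid and 2.12 to 2.35 with vehicle.

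The genes whose profile over the 6 libraries was most like that of a called member were found by the root mean square difference of log2 CPM, each gene centred on its own mean, among 9262 genes of at least 10 CPM. The nearest to Rarg were Plpp5, a lipid phosphatase gene (root mean square difference 0.0386 on the log2 scale), Rhoq, a small GTPase gene (0.0410), and Ergic1 (0.0527), a gene of the secretory pathway. The nearest to Nrip1 were Prkab1, a subunit of the kinase AMPK (0.0246), Tnks1bp1 (0.0280) and the Wnt receptor gene Fzd5 (0.0283). The nearest to Rara were the translation repressor gene Eif4ebp1 (0.0186), Efhd2 (0.0241) and Slc45a4 (0.0243). By this measure, genes with a like difference between the groups come out near each other.

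Of the genes for the proteins through which receptors repress or activate transcription, Tbl1xr1 and Ppargc1b passed the test. With 1 call in each list of 13, the counts are near the 9.46% called over all tested genes and say nothing particular about cofactors. Of 13 genes of corepressor complexes, all of them tested, 1 was called higher and none lower (2 and 1 at an unadjusted p under 0.05; 1 and 0 by DESeq2), with a median log2 fold change of 0.03 beside −0.008 over all tested genes. The called one was Tbl1xr1, which links corepressor complexes to the proteasome, at 97.9 ± 8.65 CPM with retinoic acid and 78.3 ± 1.31 CPM with vehicle (SD, n = 3; 1.25-fold, edgeR adjusted p = 0.0111). Its call did not hold without retinoic acid library 1 or 2, and 2 members were higher without retinoic acid library 3. Ncor1, which encodes the main corepressor of unliganded receptors, had 217 and 218 CPM on average with retinoic acid and vehicle (adjusted p = 0.977). Of 13 coactivator genes, again all tested, 1 was called higher and none lower (1 and 2 unadjusted; 1 and 0 by DESeq2), with a median of −0.05. It was Ppargc1b, a coactivator of mitochondrial genes, at 30.0 ± 3.08 CPM with retinoic acid and 23.2 ± 1.07 CPM with vehicle (SD, n = 3; edgeR adjusted p = 0.0278). That call did not hold without retinoic acid library 1 or 2 or vehicle library 1 or 2. The p160 coactivator genes Ncoa1, Ncoa2 and Ncoa3 were not called, with log2 fold changes of −0.19, −0.07 and −0.07.

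Among 13 tested genes of receptors that pair with RXR, 2 were called higher and 3 lower (3 and 4 at an unadjusted p under 0.05; 2 and 3 by DESeq2), beside 5.37% higher and 4.09% lower over all tested genes. Their median log2 fold change was −0.04. Ppara, the fatty acid receptor gene, had the largest fold of these at 2.38-fold, with 9.66 ± 0.743 CPM with retinoic acid and 4.06 ± 0.233 CPM with vehicle (SD, n = 3; edgeR adjusted p = 0.000139). Nr1i2, the xenobiotic receptor PXR, rose 1.24-fold, with 109 ± 5.43 CPM with retinoic acid and 87.6 ± 7.57 CPM with vehicle (SD, n = 3; edgeR adjusted p = 0.0153). Vdr, the vitamin D receptor gene, fell by 0.47 on the log2 scale, with 350 ± 13.1 CPM with retinoic acid and 485 ± 47.6 CPM with vehicle (SD, n = 3; edgeR adjusted p = 0.000572). Nr4a2, an orphan receptor gene, fell by 0.55 (adjusted p = 0.00918), and Thrb, a thyroid hormone receptor gene picked out with its value in view, by 0.35 (adjusted p = 0.0290). Ppara and Vdr were called whichever library was left out. Nr1i2 was not called without retinoic acid library 2 or vehicle library 1, Nr4a2 without retinoic acid library 1, and Thrb without retinoic acid library 1 or any of the vehicle libraries. The higher number was 1 without retinoic acid library 2 or vehicle library 1, and the lower number was 1 without retinoic acid library 1. Nr1h4, the bile acid receptor FXR, had a log2 fold change of 0.27 and an adjusted p of 0.0619.

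Of 8 genes that carry retinoids to or within the cell 4 were tested, and edgeR and DESeq2 called none (0 higher and 2 lower at an unadjusted p under 0.05). Crabp2, which delivers retinoic acid to the receptors, had 1 count over the retinoic acid libraries and 1 over the vehicle libraries, and Crabp1 had 0 and 3. Fabp5, which delivers it to PPAR delta, had 1.13 and 1.54 CPM on average. Without library 3 of either group 1 member was lower. Of 14 genes of receptor feedback and targets 8 were tested, with 3 higher and 2 lower (4 and 2 unadjusted; 5.37% and 4.09% over all tested genes) and a median log2 fold change of 0.23. The 3 higher, Cyp26b1, Isx and Dhrs3, changed far more than any receptor gene (log2 fold changes of 10.07, 2.76 and 2.13). Cyp26b1 had 920 ± 174 CPM with retinoic acid and 0.851 ± 0.481 CPM with vehicle (SD, n = 3). The size of its fold thus rests on 42 counts over the vehicle libraries. With 1 library left out its log2 fold change lay between 9.71 and 10.60. The 2 lower were Cdx1 and Lrat, the second named after its value was seen. Lrat had few reads, at 0.538 ± 0.516 CPM with retinoic acid and 2.53 ± 1.80 CPM with vehicle (SD, n = 3), and its groups overlapped. Its call did not hold without retinoic acid library 2 or vehicle library 1 or 2. That of Cdx1 did not hold without retinoic acid library 1 or 2 or vehicle library 2 or 3. The lower number was 1 without retinoic acid library 1 or vehicle library 1 or 3, and 0 without library 2 of either group. This list was drawn up with earlier results of these libraries known, so its direction is not independent evidence.

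**Figure D4:**
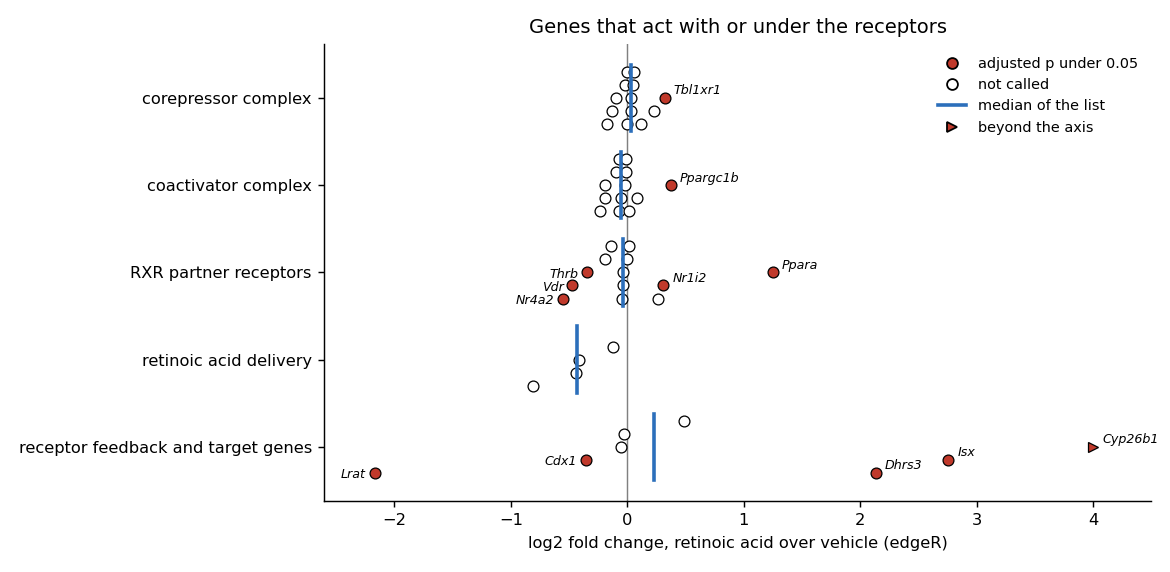
Log2 fold change, retinoic acid over vehicle, of each tested gene in 5 lists of genes that act with or under the receptors, with called genes in red and the list median as a blue line. Cofactor genes gather near 0 apart from Tbl1xr1 and Ppargc1b, and Cyp26b1 (10.07) lies beyond the axis.

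The libraries held 14919144 to 21833846 reads over genes. Epithelial markers (Epcam, Cdh1, Vil1, Krt8, Krt18, Krt20 and Cdx2) summed to 6919 to 7110 CPM in retinoic acid libraries and 6783 to 6907 CPM in vehicle libraries, and all 7 were tested without a call. Of 5 crypt stem cell markers Lgr5, Olfm4 and Smoc2 were lower with retinoic acid and Ascl2 and Axin2 were not called. Their sum was 426 to 450 CPM in retinoic acid libraries and 598 to 665 CPM in vehicle libraries, and its part in the receptor differences was not tested. In bulk RNA, fewer cells of a type and less RNA per cell cannot be told apart. Of 10 fibroblast and smooth muscle markers 9 were too low to be tested, none was at 0 in all libraries, and the 10 summed to 3.42 to 4.09 CPM with retinoic acid and 5.50 to 5.79 CPM with vehicle. Of 7 leukocyte markers 3 were tested, and 1 of them, the macrophage gene Cd68, was higher (7.28 and 4.30 CPM on average with retinoic acid and vehicle). The other 2, Csf1r and Itgam, were not called. Csf1r had 20.7 and 21.1 CPM (edgeR adjusted p = 0.924) and Itgam 2.78 and 1.65 CPM (adjusted p = 0.308), retinoic acid first. Adgre1, not tested, had 1 count over the retinoic acid libraries and 6 over the vehicle libraries. The 7 leukocyte markers summed to 28.9 to 33.8 CPM with retinoic acid and 24.9 to 29.4 CPM with vehicle. Ptprc, which marks all leukocytes, was at 0 in all retinoic acid libraries. None of 4 endothelial and 6 neuronal and glial markers was called. The part of these cell types in the receptor differences was not tested.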

How the data were processed

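Directional polyA libraries were made from organoid RNA, per the labels' protocols. The deposited table gives a raw read count per gene in 6 libraries. Beside these stand the authors' p-value, its FDR and log2 fold changes, shrunken and not, from DESeq per the file headers. The build is mm10, per the submitters' processing notes. For aligner, annotation and strand setting, the entry is: not given in the sources used here.

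Groups, replicate numbers and columns follow the sample titles. Replicate pairs of a group differed by more than sampling noise (chi-square per gene 3.96 to 10.5), so all 6 libraries were kept. Differences come from edgeR 4.0.16 under R 4.3.3 (filterByExpr defaults, 13700 genes, TMM, glmQLFit and glmQLFTest with treatment as the only term, two-sided). CPM are per 1000000 of the TMM-scaled library size, and the standard error is the log2 fold change divided by the root of F. Within-library ratios used SciPy 1.17.1. The steps were tested on simulated counts. Alternatives were DESeq2 1.42.0, its size factors in edgeR, other filters, limma-voom (limma 3.58.1), a replicate block and leaving out each library.

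The members and lists were chosen with earlier results of these data known. Named genes are all 7 members, up to 4 called genes of each list with the smallest p, and the 3 genes most like each called member. Ncor1, Ncoa1, Ncoa2, Ncoa3, Nr1h4, Crabp1, Crabp2, Fabp5, the marker genes, and the genes marked so in the text were named beside that rule with their values in view. List genes were matched by current symbol through Ensembl IDs (21102 of 21534 rows matched). All 7 members matched in the promoter table.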

Additional observations from a re-analysis of the deposited data

How the results depend on the processing

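Scaling, filter and test left the members where they were: with DESeq2 size factors, no filter, a filter of 10 counts in every library of a group, DESeq2 and limma-voom, Rarg, Nrip1 and Rara stayed called higher, and Rarb, Rxra and Rxrb were not called. With 1 library left out the log2 fold changes ranged from 0.22 to 0.28 for Rara and from −0.25 to −0.17 for Rxra, and Rxrb ranged from −0.0020 (without vehicle library 1) to 0.075 (without vehicle library 2). The genes called higher numbered 443 to 978 and lower 289 to 787, against 736 and 560. They were fewest without retinoic acid library 1 and most without retinoic acid library 3; the cause was not tested.

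Among the lists, leaving out a library gave 0 to 2 higher corepressor genes, 0 to 1 higher coactivator genes, 1 to 3 higher and 1 to 4 lower RXR partners, 0 to 1 lower delivery genes and 0 to 2 lower target genes. The log2 difference of the Rarg to Rara ratio ranged from 0.17 to 0.34 and that of Rxra to Rxrb from −0.27 to −0.20.

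Same-numbered libraries of the 2 groups deviated together with r of 0.128, 0.0975 and 0.257 across genes, and each library correlated best with its own number; 1 of the 3 pairs did not exceed 0.1, so the numbers were not taken as pairs. A replicate block gave 1224 higher and 1052 lower genes, and Rxra then had a log2 fold change of −0.20 and an edgeR adjusted p of 0.0163. Under the block 2 corepressor genes were higher and 1 lower, 2 coactivator genes were lower and 2 delivery genes were lower. For both within-library ratios the block leaves the mean difference as it is by construction, and its exact sign-flip p was 0.25, the smallest that 3 pairs allow. Depth limits Rarb, at 5 to 26 reads a library, and Rxrg, at 0 to 3.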

Other observations

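The DR5 search over all promoter windows, made with the values in view, found 32 windows of 31 genes. Of these genes 3 were matched by symbol to a tested gene. These were Rarb, Blvrb (biliverdin reductase B) and Tnfsf13b (the B cell survival factor BAFF), and Cyp26a1, a retinoic acid-degrading enzyme, was among the 28 without such a match. Their elements, read 5′ to 3′ on the strand that carries the repeat and with half-sites in capitals, are shown for comparison with that of Rarb. That of Rarb is given again, at chr14:16575513-16575529. Those of Blvrb (chr7:27452399-27452415) and Cyp26a1 (chr19:37697776-37697792) lie on the minus strand of genes on the plus strand, and that of Tnfsf13b (chr8:10006245-10006261) on the plus strand of its gene.
Rarb: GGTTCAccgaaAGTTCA
Blvrb: AGTTCAaagccAGTTCA
Tnfsf13b: AGTTCAgatggAGTTCA
Cyp26a1: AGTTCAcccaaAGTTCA
Blvrb had 11.9 ± 2.70 CPM with retinoic acid and 6.45 ± 0.286 CPM with vehicle (SD, n = 3; 1.83-fold, edgeR adjusted p = 0.00401), and was called whichever library was left out. Tnfsf13b had 4.02 ± 1.18 CPM with retinoic acid and 1.82 ± 0.0644 CPM with vehicle (SD, n = 3; 2.22-fold, adjusted p = 0.0130), and was not called without retinoic acid library 1 or vehicle library 1. Rarb differed by 2.22-fold without a call, and Cyp26a1 had 1 count over the retinoic acid libraries and 9 over the vehicle libraries. For each of the 3 tested genes all retinoic acid libraries lay above all vehicle libraries, as for 12.9% of all tested genes. Rarb passed the filter on low counts through its retinoic acid libraries, so its separation is not independent of the filter. The choice of genes to name was made with their values in view, and 3 genes are too few to set a share against that of all genes.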
